A study of Mus musculus with 72 samples.

Results

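The nuclear-encoded subunits of respiratory complexes II to V, with the complex III assembly factors named Uqcc, were examined in the hearts of adult mice. Genes were taken as members when their protein-coding mouse symbol was Sdha, Sdhb, Sdhc, Sdhd, Cyc1 or Cycs, or began with Uqc, Cox4, Cox5, Cox6, Cox7, Cox8 or Atp5. This rule uses names only and found 52 of the 24237 genes in the deposited count table, with 4 in complex II, 12 in complex III, 1 for cytochrome c, 18 in complex IV and 17 in complex V. The 13 protein-coding genes of the mitochondrial genome, which encode core subunits of complexes I, III, IV and V, have no row in the table, and neither do the 14 pseudogenes whose names fit the rule.

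Complex II (succinate dehydrogenase) oxidises succinate and passes electrons to ubiquinone. Complex III takes them to cytochrome c, and complex IV (cytochrome c oxidase) passes them to oxygen. Complexes III and IV pump protons, and complex V (ATP synthase) uses the proton gradient to make ATP. Cardiac muscle depends heavily on this pathway, and several complex IV subunits have a form found mainly in heart and skeletal muscle beside a form found in most tissues.

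The aryl hydrocarbon receptor (AHR) turns genes on or off once a ligand binds it, and TCDD is its best-known ligand among the dioxins. The 72 libraries came from C57BL/6J mice in 4 groups of 18. Naïve Ahr+/+ mice had dams that received corn oil, and unexposed Ahr-/- mice had Ahr-/- dams that were left untreated. The low-dose and high-dose groups were Ahr+/+ mice whose dams were gavaged with TCDD at 0.1 or 1 μg/kg on 3 days of gestation. The labels write these doses as 100 and 1000 without a unit, name TCDD for every sample including the controls, and give an age of 9 months. The methods of the study instead give about 10 months. Each heart was divided into right atrium, left atrium and ventricles, so that each of the 24 groups of treatment, sex and compartment holds 3 libraries, and the hearts shared between compartments are not named. The offspring were exposed before birth and sampled as adults, so these libraries hold no measurement at the time of exposure. Between Ahr-/- and naïve mice, the genotypes of offspring and dam and the lack of gavage cannot be told apart. Nothing in the labels says which offspring shared a litter, and p-values measure the spread between libraries.

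Libraries held 11873417 to 28789382 counts (median 19231739), and levels are given as CPM, counts relative to library size, with library sizes scaled by the trimmed mean of M-values (TMM). Ahr itself lay at 2.35 to 8.67 CPM in the 18 Ahr-/- libraries and at 10.4 to 34.0 CPM in the 18 naïve libraries, with no overlap, and at 5.09 to 18.6 CPM in the 36 exposed libraries. Which part of the gene the deletion removed is not given in the sources used here. Cardiomyocyte genes were abundant in every library, with a summed level of 6 markers of at least 21582 CPM. The labels name cardiomyocytes as the cell type, but the pieces of heart held other cells too, with fibroblast markers summing to at least 903 CPM and endothelial markers to at least 579 CPM in every library. Y-linked genes, Xist and the atrial myosin light chain Myl4 went against the labelled sex or compartment in 20 of the 72 libraries. Sex was contradicted in 8 libraries, the 4 female right atria and the 4 male ventricles numbered 49 to 72. Myl4 lay on the other side of a 100 CPM limit from the labelled compartment in 16. The latter were 8 atrium-labelled libraries with Myl4 at 2.86 to 46.4 CPM and 8 ventricle-labelled libraries with Myl4 at 108 to 4163 CPM. Naïve female library 35, low-dose male library 45 and low-dose female library 47 crossed only this limit, at 185, 180 and 108 CPM. They lay under the lowest atrium-labelled library above the limit (707 CPM). They held the ventricular light chain Myl2 at 4251, 6543 and 12560 CPM, so Myl4 alone does not show that their compartment label is wrong. Low-dose male library 46 also crossed only this limit, with Myl2 at 5499 CPM. Its Myl4 level of 706 CPM lay close to that lowest atrium-labelled library. In libraries 49 to 72 the contradictions recurred in the same 3 groups of sex and compartment under every treatment. The female right atrium library held Y-linked genes at 184 to 287 CPM, the male left atrium library held Myl4 at 2.86 to 4.93 CPM, and the male ventricle library held Xist at 208 to 295 CPM and Myl4 at 647 to 4163 CPM. Which tissue and sex these libraries hold was not tested, so the male ventricle, male left atrium, female right atrium and sex interaction values hold for the labels as given. No library was moved to another group, and medians and calls are given without these libraries wherever a fit could be made.

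The members took 1.93% to 6.22% of all counts in a library (median 3.61%). Their transcripts are short, at 360 to 3171 bases with a median of 720.5, against a median of 2425 bases over all genes with a count. Per kilobase of transcript, the median level over 72 libraries was highest for Atp5b, the catalytic β subunit of ATP synthase, at 3584 CPM per kilobase. Atp5g3, a gene for the membrane ring subunit c, followed at 2835 CPM per kilobase and Cox5a, a matrix-side complex IV subunit, at 2367 CPM per kilobase. At the low end lay Uqcc3, a complex III assembly factor, at 20.3 CPM per kilobase, and Cox4i2, an isoform best known from lung, at 11.2 CPM per kilobase. Cox8c had 0 counts in all 72 libraries, which allows at most 0.253 CPM in the smallest library. Cox7b2 had 3 or fewer counts in 61 libraries and Cox6b2 in 29, where its median was 0.226 CPM over all libraries. These 3 genes were counted as not detected or barely detected, while each of the other 49 had more than 3 counts in every library.

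The spread between libraries differed widely between subunits. The SD of log2 CPM over the 72 libraries was 1.13 for Cox8b, the heart-type subunit 8, which ranged from 2.91 to 240 CPM. It was 0.98 for Atp5mpl, a small membrane subunit of ATP synthase, and 0.91 for Cox7a1, the heart-type subunit 7a. The core ATP synthase genes varied least, with an SD of 0.37 for Atp5b and 0.37 for the γ subunit Atp5c1. Of the 49 detected members, 32 had their highest level in low-dose female ventricle library 47. The lowest level fell in naïve male right atrium library 1 for 26 members and in high-dose female left atrium library 64 for 12.

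In the ventricles of female mice exposed to the high dose before birth, single subunits moved in both directions while the members as a whole did not. Against naïve females, 10 of 49 members tested were higher and 10 were lower by the quasi-likelihood test of edgeR, with p-values adjusted by Benjamini and Hochberg's method over all 14006 genes tested and calls at an adjusted p under 0.05. Over all genes 12.2% were called higher and 11.4% lower, 23.7% in all, and the members' median log2 fold change was -0.05 against 0.01 for all genes. Scaled by library size only, which moved the median of all genes to -0.17, 4 members were called higher and 14 lower. Sdha, Sdhc, Cox6b1, Atp5b, Atp5d and Atp5g2 then no longer passed. The share of all genes called in that fit is not given here, so this shift is not set against theirs. At the threshold used in the study, an adjusted p under 0.0001, 0 members were called and 4 genes (0.0286%). Complex II and complex III held only higher calls, with 2 of 4 and 2 of 12 members. Of the complex III calls, Uqcrc1 is a subunit and Uqcc2 an assembly factor. Cytochrome c was lower, complex IV had 1 higher and 6 lower of 15, and complex V had 5 higher and 3 lower of 17. No test was made of whether complexes differed from each other. The plot of fold changes by complex shows the calls of either sign.

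**Figure D1:**
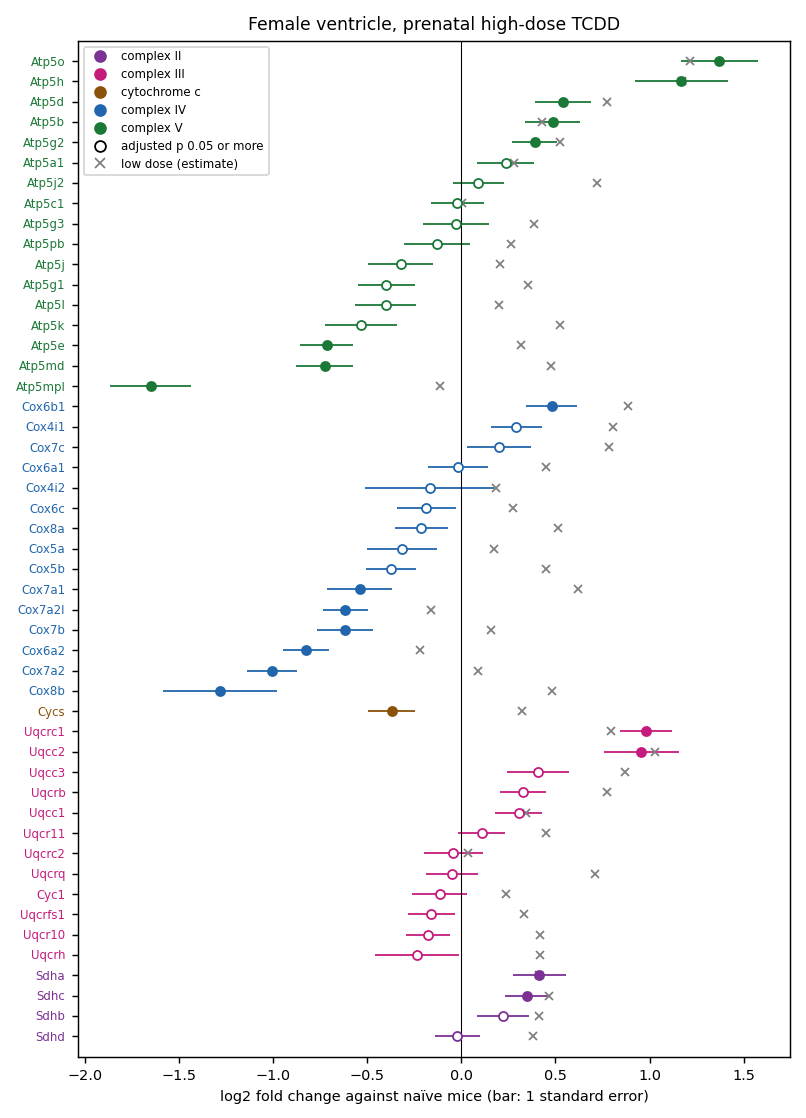
Log2 fold change of each of the 49 members tested in female ventricle after prenatal high-dose TCDD against naïve mice (horizontal axis; bars are 1 standard error, n = 3 against 3), grouped and coloured by complex. Filled circles are the 20 members with an adjusted p under 0.05, crosses are the estimates for the low dose, and the values run from -1.65 for Atp5mpl to 1.37 for Atp5o.

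In complex II, Sdha, the flavoprotein that oxidises succinate, held 2706, 3239 and 2819 CPM in the 3 high-dose libraries and 1981, 2123 and 2368 CPM in the naïve libraries. The groups did not overlap, and the log2 fold change was 0.41 ± 0.14 (SE, edgeR adjusted p = 0.0489). Sdhc, a membrane anchor subunit, was higher by a similar amount (log2 fold change 0.35 ± 0.12, adjusted p = 0.0483). The iron-sulphur subunit Sdhb did not pass the test (0.22, adjusted p = 0.263), and the other anchor, Sdhd, had the largest p of the complex at -0.02 (adjusted p = 0.913).

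In complex III, Uqcrc1, a core subunit on the matrix side, held 1773, 2177 and 1942 CPM in the high-dose libraries against 886, 1063 and 990 CPM in the naïve libraries. Every high-dose library lay above every naïve library, and the log2 fold change was 0.98 ± 0.14 (edgeR adjusted p = 0.000819). Uqcc2, which assists the synthesis of the mitochondrially encoded cytochrome b, held 136, 188 and 132 CPM against 60.0, 71.6 and 99.3 CPM, again without overlap (0.96 ± 0.20, adjusted p = 0.00613). The partner core subunit Uqcrc2 held 1007, 1034 and 763 CPM against 845, 908 and 1091 CPM. These groups overlapped, and its log2 fold change was -0.04 ± 0.15 (adjusted p = 0.874). Cycs, the soluble cytochrome c that carries electrons between complexes III and IV, held 654, 777 and 652 CPM against 845, 896 and 910 CPM. All 3 high-dose libraries lay below the naïve ones (log2 fold change -0.37 ± 0.13, adjusted p = 0.0477).

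Complex IV held the most falling members. Cox7a2, the form of subunit 7a found in most tissues, held 116, 151 and 118 CPM in the high-dose libraries and 250, 248 and 265 CPM in the naïve libraries, a log2 fold change of -1.01 ± 0.13 (edgeR adjusted p = 0.000696). Cox6a2, the muscle form of subunit 6a, held 460, 468 and 469 CPM against 816, 737 and 887 CPM (-0.83 ± 0.12, adjusted p = 0.00112). In both genes the high-dose libraries lay together and far below the naïve ones. Cox7a2l, a relative of the 7a subunits known from supercomplexes of complexes III and IV, held 185, 221 and 204 CPM against 314, 310 and 296 CPM (-0.62 ± 0.12, adjusted p = 0.00342). Cox8b held 18.0, 48.3 and 34.0 CPM against 77.4, 86.8 and 75.3 CPM (-1.28 ± 0.30, adjusted p = 0.0186), with the widest spread among the fallers. Cox7a1, the heart form of subunit 7a, was also lower (-0.54 ± 0.17, adjusted p = 0.0394), and so was Cox7b (-0.62 ± 0.15, adjusted p = 0.0102). Cox6b1, a subunit on the intermembrane side, was the 1 complex IV member that rose, with 846, 1079.5 and 1076 CPM against 641, 723 and 754 CPM (0.48 ± 0.14, adjusted p = 0.0232).

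The isoform partners did not all pass the test. Cox6a1, the common partner of Cox6a2, had the largest p of the complex at 86.8, 136 and 102 CPM against 107, 99.1 and 118 CPM (log2 fold change -0.02 ± 0.16, edgeR adjusted p = 0.945). Cox8a, the common partner of Cox8b, was at -0.21 ± 0.14 (adjusted p = 0.293). Cox4i1, the common form of subunit 4, was at 0.29 ± 0.13 (adjusted p = 0.133), and Cox4i2 at -0.17 ± 0.34 (adjusted p = 0.761). Heart and common forms of subunit 7a were therefore both lower, whereas for subunits 6a and 8 the common form did not pass in this fit. With the trend of counts with GC content removed from each library, Cox8a was called lower (-0.53, edgeR adjusted p = 0.0269). Those differences between partners were not tested. Per length, Cox6a2 stood at 6.24 to 6.42 times Cox6a1 in the naïve female ventricles and at 2.89 to 4.45 times in the high-dose ones.

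In complex V, Atp5o, the stalk subunit that holds the catalytic head in place (OSCP), held 2543, 1897 and 3497 CPM in the high-dose libraries against 914, 913 and 1185 CPM in the naïve libraries. The high-dose libraries were spread widely but all lay above the naïve ones (log2 fold change 1.37 ± 0.21, edgeR adjusted p = 0.00123). Atp5h, another subunit of the peripheral stalk, held 789, 512 and 1117 CPM against 307, 343 and 407 CPM (1.17 ± 0.25, adjusted p = 0.00945). Atp5d, the δ subunit of the rotating central stalk, was higher by less (0.54 ± 0.15, adjusted p = 0.0206), as was Atp5b (0.48 ± 0.15, adjusted p = 0.0305). Atp5mpl fell furthest, with 41.3, 83.6 and 60.0 CPM against 196, 171 and 205 CPM (-1.65 ± 0.21, adjusted p = 0.000884). Atp5e, the ε subunit of the central stalk, was lower (-0.72 ± 0.14, adjusted p = 0.00399), and so was Atp5md, a small membrane subunit known from ATP synthase dimers (-0.73 ± 0.15, adjusted p = 0.00542). The γ subunit Atp5c1 had the largest p of the complex (-0.02 ± 0.14, adjusted p = 0.932). Of the peripheral stalk genes only Atp5o and Atp5h were called, while Atp5pb and Atp5j stood at -0.13 and -0.32.

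All 20 called members had groups that did not overlap. The calls rest on the same values, so this is no separate evidence, and the share over all genes is not given here. The 10 higher members have transcripts of 452 to 3171 bases (median 884.5) and the 10 lower members transcripts of 360 to 3123 bases (median 540). With the trend of counts with transcript length removed from each library, 5 members were called higher and 12 lower, beside 11.2% and 10.9% of all genes. With the GC trend removed, 7 were higher and 11 lower, beside 7.7% and 6.63%. Cycs no longer passed and lay at 0.02 (edgeR adjusted p = 0.926). Uqcc2, Cox7b, Atp5md, Atp5b, Atp5d and Atp5g2 lost their calls too. Uqcrb became called higher, and Atp5g1, Uqcr10, Cox8a and Atp5k became called lower. The part of length and GC content in the calls was otherwise not tested.

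Called members depended on single libraries in part. Left out in turn, each of the 6 libraries left 13 to 25 members called, and 11 members stayed called in every such fit, with Atp5h, Atp5o, Uqcc2 and Uqcrc1 higher and Atp5e, Atp5md, Atp5mpl, Cox6a2, Cox7a2, Cox7a2l and Cox7b lower. Without naïve library 35, whose Myl4 level of 185 CPM lay above the limit, 4 were higher and 9 lower of 49, beside 10.9% of all genes in either direction. Without naïve library 36, or without high-dose library 66, 13 were called as well. Among the fits with a library left out, the share of all genes called is given here only for that without library 35. Whether members kept their calls more often than other genes was therefore not tested. With all 4 female ventricle groups in a single fit, which estimates the spread from all 12 libraries, only Uqcrc1 and Uqcc2 remained called (adjusted p = 0.0274 and 0.0409), beside 4.96% of all genes.

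**Figure D2:**
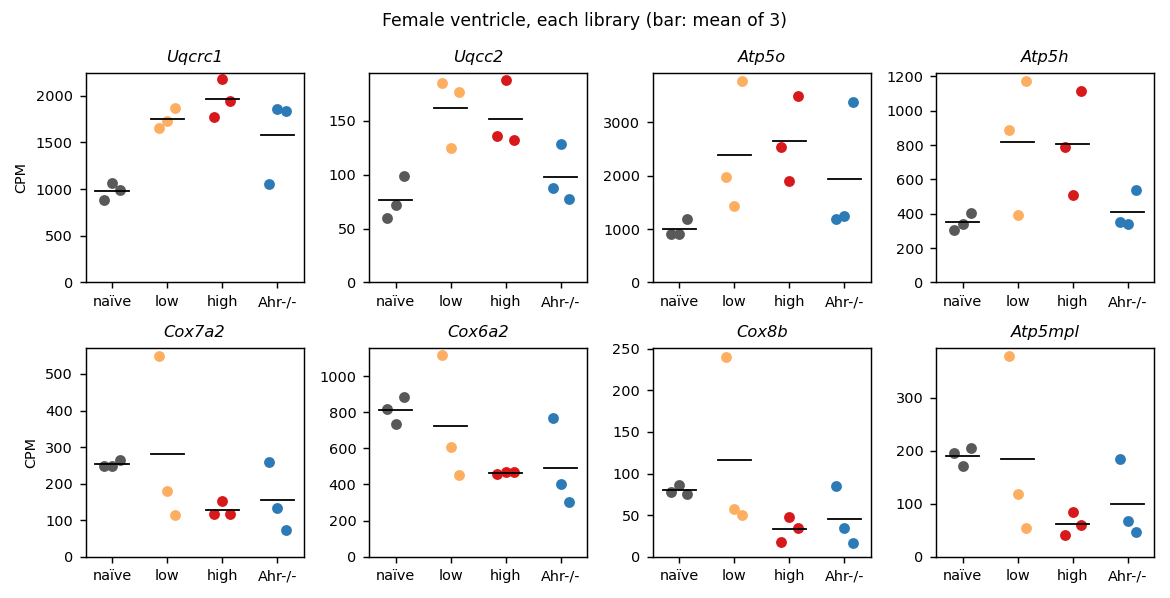
Level in CPM (vertical axis, from 0) of 4 members that rose and 4 that fell in female ventricle after the high dose, with 1 point per library of each treatment group and a bar at the mean of 3. High-dose points lie apart from naïve points in each gene, and low-dose library 47 lies above all other points for Cox7a2, Cox6a2, Cox8b and Atp5mpl, at 548 CPM for Cox7a2.

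Other genes moved in the same libraries. Of the 6 cardiomyocyte markers, 4 were called higher in high-dose female ventricle (Tnni3 1.23, Actc1 1.14, Myh6 1.01 and Tnnt2 0.77) and Ryr2 was lower (-0.45), and the summed level of the 6 was 65779 to 103001 CPM against 39782 to 47797 CPM in the naïve libraries. Of the 5 fibroblast markers 2 were lower, at a summed 1135 to 1287 CPM against 1315 to 1691 CPM. Smooth muscle markers were higher for 2 of 4, and 2 of 3 ventricular markers were higher. Adipocyte markers summed to 0.382 to 2.16 CPM in the high-dose and 0.158 to 12.6 CPM in the naïve libraries, near 0, and Ucp1 was at 0 in the high-dose libraries. The part of these shifts in the members' changes was not tested, and in bulk tissue fewer cells of a type and less RNA per cell cannot be told apart.

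Of 35 assembly factors of complexes II to V that carry none of the members' names, 7 were higher and 4 lower in high-dose female ventricle, where the same fit called 12.2% of all genes higher and 11.4% lower. Coa6, a copper-handling factor for complex IV, fell by 1.48 on the log2 scale (SE 0.20, edgeR adjusted p = 0.000702). Cox14, which the study also names and which assists the synthesis of the mitochondrially encoded Cox1, was higher (1.24 ± 0.18, adjusted p = 0.00108). Cox17, the copper chaperone of complex IV, was higher (0.64 ± 0.13, adjusted p = 0.00537), and so was Sdhaf1, which serves the iron-sulphur subunit of complex II (0.68 ± 0.17, adjusted p = 0.0126). Tmem242, an ATP synthase assembly factor, and Ttc19, which clears fragments from complex III, were lower (-0.89 and -0.56). Among 12 regulators of mitochondrial biogenesis, 1 was higher and 2 were lower, with a median of -0.03.

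Promoters of the members were searched on both strands for short motifs, since members of the same complexes changed in opposite directions. RefSeq windows from 250 bases before to 50 bases after the start (build GRCm38.p6) were available for 40 of the 52 members and 27025 genes in all. The nuclear respiratory factor motif GCATGCGC lay in 8 of the 40 members' promoters (20.0%), against 3.05% of all promoters and 5.59% of those of genes tested in high-dose female ventricle. The ETS motif CCGGAAG, bound by GABP, lay in 13 (32.5%, against 9.93% and 18.7%), and the ERR motif AAGGTCA in 6 (15.0%, against 5.38% and 3.87%). The YY1 motif AAGATGGC lay in 4 (10.0%, against 3.19% and 4.91%), and the SP1 motif GGGCGG in 18 (45.0%, against 38.2% and 66.4%). The AHR core GCGTG, short enough to be common, lay in 25 (62.5%, against 35.2% and 54.0%). Of the members with a promoter window, 9 were called higher and 8 lower. The AHR core lay in 7 and 4 of them, the SP1 motif in 3 and 5, the ETS motif in 2 and 2, the nuclear respiratory factor motif in 2 and 1, the ERR motif in 0 and 1, and the YY1 motif in 1 and 0. These shares describe the letters of the windows, and binding was not measured.

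The 250 bases before the start are shown for 2 members that rose, Uqcc2 and Atp5h, and 2 that fell, Cox7a2 and Cox8b, 5′ to 3′ along the gene. Capitals mark matches to the motifs named above, on either strand, and no motif contains another. Uqcc2 holds an AHR core (here CACGC, the reverse complement) and an SP1 motif, Atp5h an AHR core and an ETS motif, Cox7a2 an AHR core and an SP1 motif, and Cox8b none of the 6 in these bases.
Uqcc2 chr17:27133892-27134141, minus strand: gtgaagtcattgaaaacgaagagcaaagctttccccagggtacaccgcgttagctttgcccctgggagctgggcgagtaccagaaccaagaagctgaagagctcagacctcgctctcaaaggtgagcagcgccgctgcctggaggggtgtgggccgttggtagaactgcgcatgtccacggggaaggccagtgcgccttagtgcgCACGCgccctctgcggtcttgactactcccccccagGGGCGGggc
Atp5h chr11:115419920-115420169, minus strand: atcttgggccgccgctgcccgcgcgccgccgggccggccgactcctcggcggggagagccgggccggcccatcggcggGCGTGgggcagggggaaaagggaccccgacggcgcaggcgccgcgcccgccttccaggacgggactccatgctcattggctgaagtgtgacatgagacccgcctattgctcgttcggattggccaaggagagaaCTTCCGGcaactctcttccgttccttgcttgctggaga
Cox7a2 chr9:79759854-79760103, minus strand: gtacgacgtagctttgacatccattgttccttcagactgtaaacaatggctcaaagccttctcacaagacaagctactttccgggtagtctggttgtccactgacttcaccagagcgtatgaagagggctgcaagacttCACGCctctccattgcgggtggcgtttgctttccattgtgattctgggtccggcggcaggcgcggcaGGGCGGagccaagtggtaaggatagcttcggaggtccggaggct
Cox8b chr7:140900447-140900696, minus strand: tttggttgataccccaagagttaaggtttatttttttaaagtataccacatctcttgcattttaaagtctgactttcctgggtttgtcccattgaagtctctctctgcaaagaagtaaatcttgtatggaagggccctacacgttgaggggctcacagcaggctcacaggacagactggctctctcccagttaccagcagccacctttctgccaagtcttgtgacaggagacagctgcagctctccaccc

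The low dose was examined in the same compartment against the same naïve libraries, so its values are set beside those of the high dose without a test of likeness. By edgeR 0 of 49 members and 0 of 13966 genes were called, DESeq2 called 8 of 51 members, all higher, beside 1.94% of all genes called higher, and 13 members were higher at an unadjusted p under 0.05 (background 9.9% higher) with 0 lower. Uqcc2 held 185, 124 and 177 CPM in the low-dose libraries, above all 3 naïve libraries (log2 fold change 1.03 ± 0.23, edgeR adjusted p = 0.144). Uqcrc1 held 1651, 1732 and 1867 CPM, also above all naïve libraries (0.79 ± 0.18, adjusted p = 0.144). Atp5o and Atp5h were at 1.21 and 1.17, with 3779 and 1176 CPM in library 72.

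The members that fell at the high dose were split within the low-dose group. Cox7a2 held 180 and 115 CPM in libraries 48 and 72, under the naïve libraries, and 548 CPM in library 47. Atp5mpl held 119 and 54.1 CPM in those 2 libraries and 378 CPM in library 47, and Cox8b 57.0 and 50.7 CPM against 240 CPM. The median log2 fold change over the members was 0.42 with all libraries, 0.03 without library 47 and -0.01 without libraries 47 and 35. In that last fit, members lay on both sides at an unadjusted edgeR p under 0.05, and no member was called. Among these, Atp5mpl (-1.15), Cox7a2 (-0.83) and Cox6a2 (-0.65) were lower. Uqcrc1 (0.78), Uqcc2 (0.79) and Atp5o (1.28) were among the higher ones. Without library 48, 3 members were called, beside 1.37% of all genes.

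High and low dose were also compared directly, which uses no naïve library. By edgeR 0 of 49 members and 0 of 13994 genes were called, and DESeq2 called 0 members. At an unadjusted p under 0.05, 13 members were lower at the high dose and 0 higher (background 2.7% lower). Cox5b, a zinc-binding complex IV subunit, had the smallest p (log2 fold change -0.85 ± 0.30, edgeR adjusted p = 0.895). The median was -0.48, and -0.14 without library 47.

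In Ahr-/- female ventricle, 0 of 49 members were called by edgeR and by DESeq2, with 3 genes called in all (0.0216%). At an unadjusted p under 0.05, 5 members passed, 3 higher and 2 lower, beside 6.12% of all genes higher and 3.33% lower. Uqcrc1 held 1051, 1855 and 1835 CPM, of which the lowest lay within the naïve range (0.69 ± 0.22, edgeR adjusted p = 0.515). Library 39 lay near the naïve libraries for the members that fell at the high dose, with Cox7a2 at 260 CPM and Cox6a2 at 767 CPM, whereas libraries 40 and 60 held 133 and 73.0 CPM of Cox7a2 and 402 and 305 CPM of Cox6a2. Without library 39, 13 members were called, 1 higher and 12 lower, beside 3.69% of all genes higher and 3.42% lower. Without naïve library 35 alone, 0 members were called and the median moved from -0.13 to -0.18. This comparison shares the naïve libraries with the other female ventricle comparisons.

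In male ventricle, no member was called after the high dose with all libraries. By edgeR and by DESeq2 0 of 49 members were called, with 0 of 14162 genes by edgeR, and 2 members were higher at an unadjusted p under 0.05 (background 2.93% higher). The members' mean log2 CPM was 9.44 and 9.33 in libraries 41 and 42 and 7.25 in library 65, against 8.02, 8.52 and 8.23 in the naïve libraries 33, 34 and 53. Library 65 is labelled male ventricle but held Xist at 294 CPM and Myl4 at 1313 CPM, and naïve library 53 held 272 and 1318 CPM. Cox8a had the smallest p, with 71.9, 59.8 and 38.6 CPM against 23.0, 24.4 and 41.8 CPM (log2 fold change 0.91 ± 0.33, edgeR adjusted p = 0.525).

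Without library 65 alone, and without library 53 alone, 0 members were called, with median log2 fold changes of 1.06 and 0.67. Without both libraries, which leaves 2 against 2 and only libraries numbered 1 to 48, 32 of 49 members were higher and 0 lower, with a median log2 fold change of 1.05. Over all 13865 genes 7.13% were called higher and 8.81% lower. The calls took in 2 of 4 members of complex II, 7 of 12 of complex III, 12 of 15 of complex IV and 11 of 17 of complex V. Cox5b was higher by 1.67 ± 0.29 on the log2 scale (edgeR adjusted p = 0.0118), Cox6a1 by 1.57 ± 0.26 and Cox7a2 by 1.40 ± 0.24, with 329 and 333 CPM against 108 and 136 CPM. Atp5mpl, which fell furthest in females, was higher by 1.43 ± 0.24, with 215 and 257 CPM against 76.4 and 95.0 CPM.

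The difference between the sexes was tested as an interaction of sex and high dose over the 12 ventricle libraries. By edgeR and by DESeq2 0 members were called, and 6 members were lower at an unadjusted p under 0.05 with 0 higher (background 2.38% lower). Cox8a had the smallest p (female minus male difference in log2 fold change -1.15 ± 0.36, edgeR adjusted p = 0.952). Without the 3 libraries against their labels, 21 of 50 members differed, all with the lower change in females, beside 2.68% of all genes. Cox7a2 then differed by -2.47 ± 0.27 (edgeR adjusted p = 0.000386) and Atp5mpl by -3.10 ± 0.37 (adjusted p = 0.000735). Without library 65 alone the count was also 21 (background 2.38%), and with libraries 1 to 48 it was 14 (background 1.96%).

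At the low dose in male ventricle, 0 of 49 members were called by edgeR and 3 of 51 by DESeq2, all higher, beside 0.393% of all genes called higher. By edgeR there were 15 higher and 0 lower at an unadjusted p under 0.05 (background 5.83% higher). Atp5h had the smallest p (log2 fold change 1.07 ± 0.25, edgeR adjusted p = 0.29), and the median over the members was 0.57. All 3 low-dose libraries went against their labels by the sex genes or the Myl4 limit, libraries 45 and 46 only by Myl4 at 180 and 706 CPM. Therefore no fit without such libraries could be made. With libraries 1 to 48 only, 6 members were called, all higher, beside 0.907% of all genes. In Ahr-/- male ventricle 0 members were called by either tool, 2 were higher at an unadjusted p under 0.05 (background 1.53% higher), and the smallest p was that of Atp5l, a membrane subunit of ATP synthase (0.67 ± 0.27, edgeR adjusted p = 0.827). Without libraries 53 and 59, which leaves 2 against 2, 0 members were called and the median moved from 0.44 to 0.57.

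**Figure D3:**
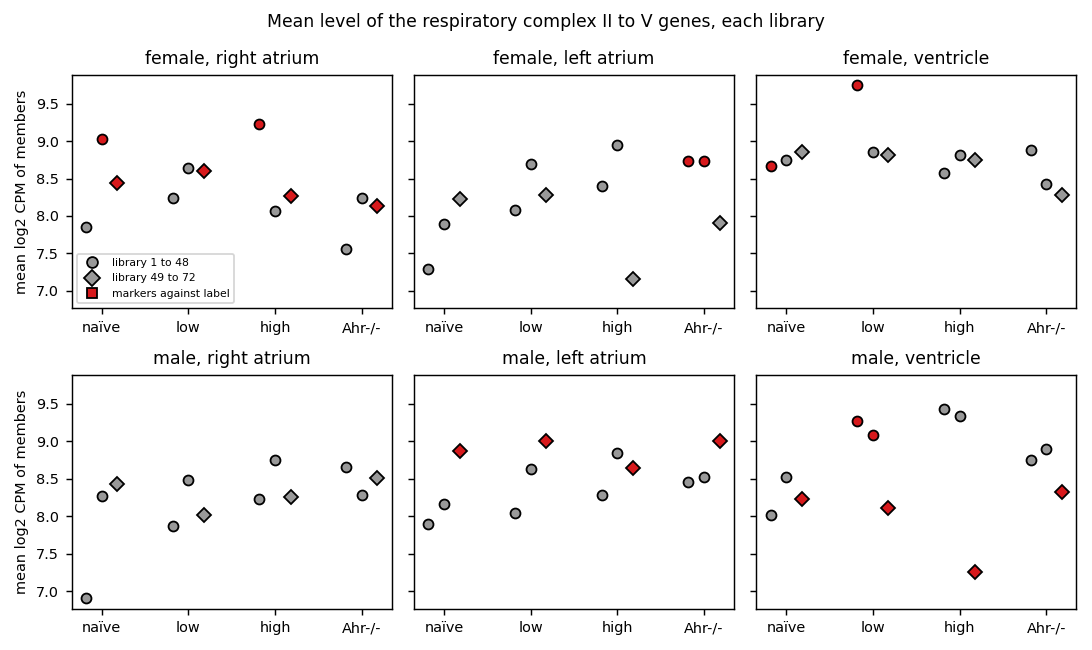
Mean log2 CPM over the members (vertical axis) in each of the 72 libraries, by sex, compartment and treatment group, with circles for libraries 1 to 48, diamonds for libraries 49 to 72 and red for libraries whose sex or compartment markers go against the label. Values run from 6.91 in naïve male right atrium library 1 to 9.75 in low-dose female ventricle library 47, and libraries of 1 group can lie over 2 log2 units apart, as in high-dose male ventricle.

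In the atria, 0 members were called by edgeR in any of the 12 comparisons with naïve mice, and 0 genes of any kind were called. DESeq2 called 6 of 50 members in low-dose female left atrium, all higher, beside 1.43% of all genes called higher, and 0 in the other 11 comparisons. Low-dose female left atrium had 18 members higher at an unadjusted p under 0.05 and 0 lower (background 8.69% higher), with a median log2 fold change of 0.53. Uqcrb, a small complex III subunit, had the smallest p there (0.86 ± 0.22, edgeR adjusted p = 0.156). In this group the members' mean log2 CPM was 8.08, 8.69 and 8.28, against 7.30, 7.89 and 8.23 in the naïve libraries, and the groups overlapped.

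In Ahr-/- female left atrium 12 members were higher at an unadjusted p under 0.05 (background 7.12% higher), led by Uqcr11, a small complex III subunit (1.21 ± 0.39, edgeR adjusted p = 0.359). Libraries 23 and 24 of this group held ventricle-like Myl4 levels of 46.4 and 5.20 CPM. With libraries 1 to 48 only, which takes those 2 against naïve libraries 19 and 20, 23 members were higher beside 9.02% of all genes. Without libraries 23 and 24, library 58 alone was left against 3 naïve libraries, and its median over the members was 0.02 against 0.55 with all libraries. That fit called 0 members with an arm of 1 library, which is assumed to vary like the naïve ones.

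The other 10 atrial comparisons had 0 to 3 members at an unadjusted p under 0.05, where 1.6% to 11.4% of all genes had one, and the single member of smallest p had an adjusted p of 0.393 or more. In right atrium these members were Sdhb in Ahr-/- females (log2 fold change -0.76), Atp5o in high-dose females (0.60), Uqcc2 in low-dose females (0.54), Atp5d in Ahr-/- males (0.67), and Cyc1, the haem-bearing subunit of complex III, in high-dose and low-dose males (0.86 and 0.80). In left atrium they were Cox8a in high-dose females and low-dose males (0.86 and 0.51), Cox8b in Ahr-/- males (0.69) and Atp5h in high-dose males (1.18). Over the 12 atrial comparisons the members' medians ran from -0.51 in Ahr-/- female right atrium to 0.55 in Ahr-/- female left atrium. The former turned to 0.08 without libraries against their labels, which left naïve library 3 alone against Ahr-/- libraries 7 and 8, and the median in low-dose female right atrium moved from -0.05 to 0.63 in the same way. In male left atrium, without naïve library 51 and the library numbered 57, 63 or 69, 0 members were called and the medians moved from 0.30 to 0.43 in Ahr-/- mice, from 0.24 to 0.53 at the high dose and from 0.26 to 0.29 at the low dose. In high-dose female right atrium only 1 library against 1 was left, so no fit without such libraries could be made.

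Between compartments, the members that passed the test were all higher in the ventricles than in the atria. All 72 libraries were fitted with terms for treatment, sex and library series, and libraries were treated as separate because shared hearts are not named. Against the right atrium 27 of 50 members were higher and 0 lower by edgeR, beside 15.2% and 17.8% of 15824 genes, and 47 of 50 members lay above 0 where 46.0% of all genes did. Against the left atrium 16 were higher and 0 lower, beside 8.83% and 12.2% of all genes. The median log2 fold changes were 0.38 and 0.32. Between left and right atrium 0 members were called by edgeR and by DESeq2, 0 had an unadjusted p under 0.05, and 1 gene was called in all (0.00632%).

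All 4 members of complex II were called against both atria. Sdha held 1462 to 4029 CPM in ventricle-labelled libraries (median 2720, n = 24), 1097 to 2229 CPM in right atrium (median 1663) and 1032 to 3010 CPM in left atrium (median 1810.4). The ranges overlapped, and the log2 fold changes were 0.65 ± 0.10 and 0.53 ± 0.10 (edgeR adjusted p = 5.4e-06 and 0.000665). Uqcrc1 had a median of 1652 CPM in ventricle, 866 CPM in right atrium and 992 CPM in left atrium (0.59 ± 0.14 and 0.49 ± 0.14, adjusted p = 0.00132 and 0.012). Cox5a had the largest change against the right atrium (0.68 ± 0.18, adjusted p = 0.00308), and Atp5l against the left (0.53 ± 0.18, adjusted p = 0.0256).

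Leaving out the 20 libraries against their labels widened the difference. Against the right atrium 37 members were then higher and 0 lower, beside 23.3% of all genes higher, and against the left atrium 36 were higher and 0 lower, beside 22.0%. Sdha then stood at 0.93 and 0.81. Scaled by library size only, which moved the median of all genes to -0.22 and -0.17, 12 and 10 members were higher and 0 lower. Shares of all genes called in those fits are not given here. Of the 35 assembly factors, 18 were higher against the right and 11 against the left atrium with 0 lower, and 7 and 6 of the 12 regulators were higher.

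Cell type markers differed between compartments too. Cardiomyocyte markers summed to a median of 56423 CPM in ventricle, 39661 CPM in right and 45757 CPM in left atrium, and 3 of 6 were called higher against the right and 1 of 6 against the left atrium. Fibroblast markers had medians of 1303, 2009 and 2160 CPM, with 2 and 3 of 5 lower in ventricle. Adipocyte markers had medians of 3.00, 25.9 and 72.5 CPM, with single atrial libraries up to 1994 CPM. Their part in the members' difference was not tested.

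**Figure D4:**
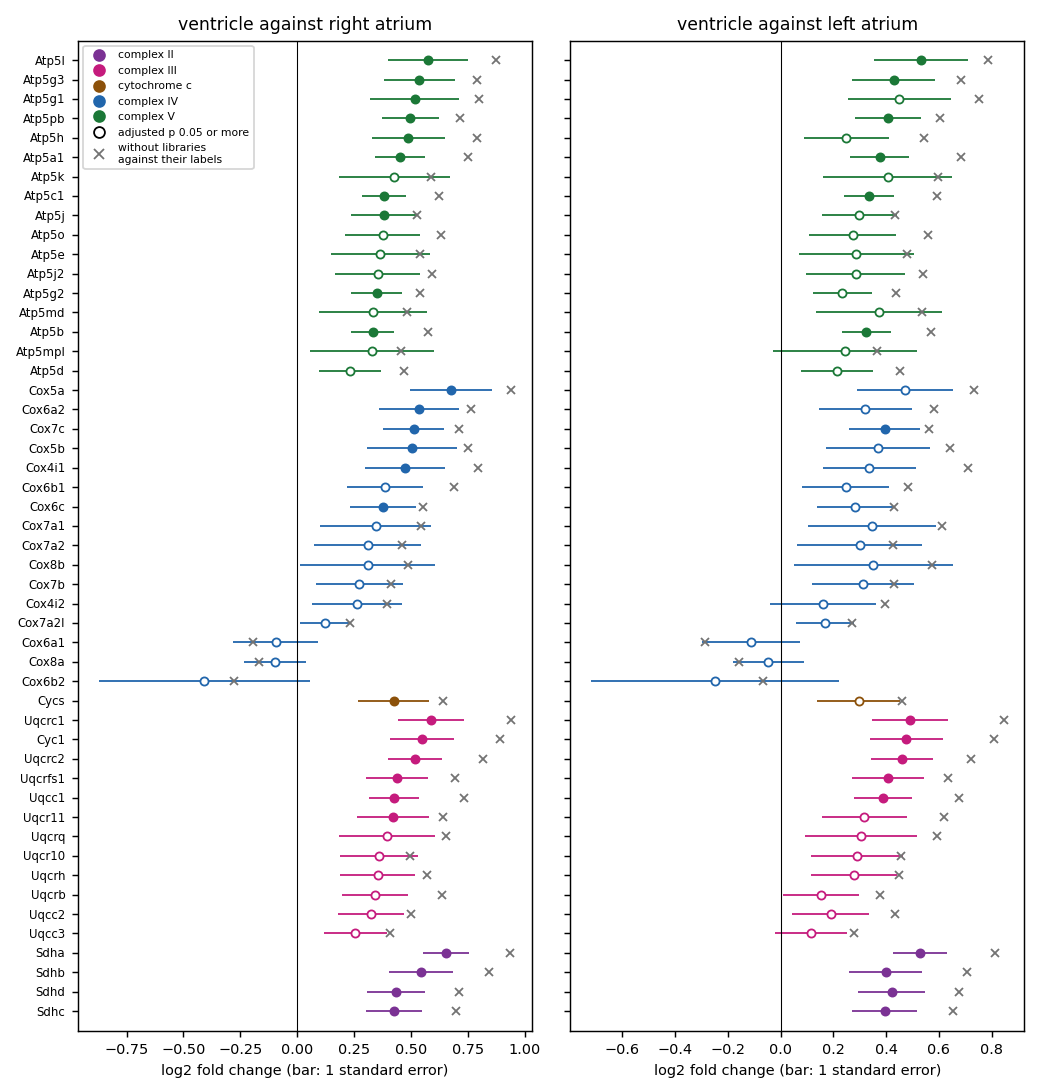
Log2 fold change of each of the 50 members tested, ventricle against right atrium (left panel) and against left atrium (right panel), with bars of 1 standard error over 72 libraries and colours by complex. Filled circles have an adjusted p under 0.05 (27 and 16 members), and crosses, without the 20 libraries against their labels, lie farther from 0 for most members, while Cox6a1, Cox8a and Cox6b2 lie below 0 in both panels.

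The isoforms of complex IV subunits were also compared across compartments. Cox6a2 was higher in ventricle than in right atrium (log2 fold change 0.54 ± 0.18, edgeR adjusted p = 0.0147), whereas Cox6a1 was at -0.10 ± 0.19 (adjusted p = 0.727). Against the left atrium Cox6a2 did not pass (0.32 ± 0.18, adjusted p = 0.181). Cox4i1 was called against the right atrium (0.47 ± 0.18, adjusted p = 0.0312), and Cox7a1, Cox7a2, Cox8a, Cox8b, Cox7a2l, Cox6b1 and Cox4i2 passed in neither contrast. Per length, the median ratio of Cox6a2 to Cox6a1 was 2.83 in right atrium, 2.92 in left atrium and 3.85 in ventricle, where it was 4.09 with a range of 2.87 to 6.93 without libraries against their labels. The ratio of Cox7a1 to Cox7a2 had medians of 3.10, 3.32 and 3.27, and that of Cox8b to Cox8a 1.63, 1.65 and 2.01. Cox4i2 stood at about 0.0094 of Cox4i1 in both atria and at 0.0086 in ventricle. The ranges of the compartments overlapped in all 4 ratios.

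**Figure D5:**
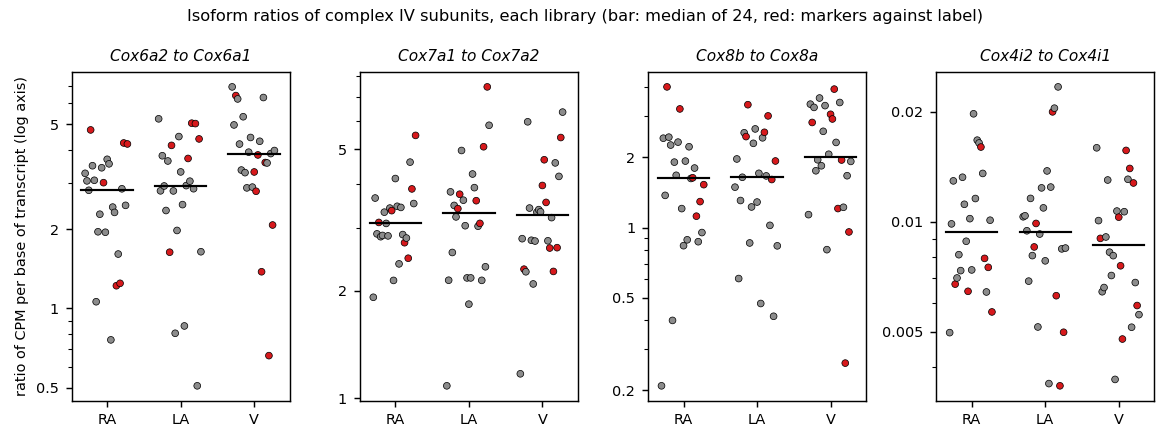
Ratio of isoforms of 4 complex IV subunits, as CPM per base of transcript (log axis), in each of the 72 libraries by compartment (RA, right atrium, LA, left atrium, V, ventricle), with a bar at the median of 24 and red points for libraries against their labels. The muscle forms lie above the common forms in most libraries (medians of 1.63 to 3.85), and Cox4i2 lies near 0.01 of Cox4i1.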

How the data were processed

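RNA from right atrium, left atrium and ventricles was sequenced by the authors as poly-A libraries with single reads. TopHat alignments to mm10 were turned by the authors into counts over coding regions, and they deposited raw counts per gene without normalization. Their annotation release and their handling of strand and of multiply mapped reads are not given in the sources used here, so members with near-identical copies may share or lose reads. RefSeq tables gave a symbol for 24155 of the 24237 genes, and the 82 others held 3.91% of the counts. Transcript lengths came from RefSeq.

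Samples were grouped by their labels, with replicates named by library number (1 to 72). Counts were tested in edgeR 4.0.16 (R 4.3.3, limma 3.58.1) with filterByExpr (minimum count 10, minimum total 15), TMM scaling, robust dispersions and the quasi-likelihood F test, with Benjamini-Hochberg adjustment over all genes tested and calls at 0.05. The study used DESeq, the sexes apart, and an adjusted p of 0.0001. Each of the 18 comparisons with naïve mice held 3 libraries against 3, where an exact permutation test of a single value could not go below p = 0.1. Alternatives were DESeq2 1.42.0, no filter, RLE or library-size scaling, all 4 groups in a fit, a library series term (1 to 48 against 49 to 72), libraries 1 to 48 only, removal of a length or GC trend (spline, 5 degrees of freedom), leaving out libraries against their labels (Myl4 limit 100 CPM), and leaving out each library. Intervals and limits from a count of 0 cover counting error only. The methods were tested on simulated data. Tables and figures were made with Python 3.11.15, pandas 2.3.3, numpy 2.4.6 and matplotlib 3.10.9.

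The members, lists and tests were chosen with earlier results of these data known. Named were isoform-bearing complex IV subunits, up to 3 members per direction and complex (complex III with cytochrome c) in high-dose female ventricle with the member of largest p, the member of smallest p in each comparison without calls, the 3 largest changes between compartments, and up to 3 assembly factors per direction with Cox14. Members named for their level or spread, and Sdhb, Cox7b, Atp5pb, Atp5j, Atp5b and Atp5g2 in high-dose female ventricle, were added after their values were seen, as were the other genes of the fits without single libraries.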

Additional observations from a re-analysis of the deposited data

How the results depend on the processing

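Of the counts of members recomputed with another choice, 223 stayed within 1.5 times the main count and 19 did not. In high-dose female ventricle, 20 became 0 at an adjusted p of 0.0001, 2 with all 4 groups in a fit, 12 with libraries 1 to 48 only, 13 without libraries against their labels, and 13 to 25 with each library left out. Cycs there reversed to 0.0211 with the GC trend removed. From 0 members called, libraries 1 to 48 only gave 23 in Ahr-/- female left atrium, 32 in high-dose male ventricle, 6 in low-dose male ventricle and 14 for the sex interaction. Leaving out libraries against their labels gave 32 in high-dose male ventricle and 21 for the interaction. DESeq2 gave 6 in low-dose female left atrium, 8 in low-dose female ventricle and 3 in low-dose male ventricle. With each library left out, counts ran from 0 to 1 in Ahr-/- female left atrium (1 without library 58), 0 to 13 in Ahr-/- female ventricle, 0 to 3 in low-dose female ventricle and 0 to 21 for the interaction. Against the right atrium, 27 became 1 at 0.0001 and 12 by library size. Against the left atrium, 16 became 0 at 0.0001, 10 by library size, 33 with libraries 1 to 48 and 36 without libraries against their labels. Fewer libraries enter the fits that leave some out, and the cause of the other changes was not tested. Shares of all genes called are given above for some of these fits only. These counts alone therefore do not show a change particular to the members.

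Of single members' fold changes, 759 kept their side of the threshold, 53 lost it, 20 gained it and 1 reversed. No paired analysis was possible because the replicate numbers in the labels are library numbers, which no 2 groups share. Without libraries against their labels, low-dose male ventricle had no exposed library left and high-dose female right atrium 1 library against 1, and neither was fitted. Depth limits only Cox8c, Cox7b2 and Cox6b2.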
